A study of Homo sapiens with 22 samples.

Results

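DNA replication genes are the 45 genes described here, chosen by name for their roles at replication origins, in the replicative helicase, at the fork, in nucleotide supply and in entry into S phase. Earlier results of these data were known when they were chosen. All 45 symbols matched 1 Ensembl ID each among the 48162 IDs of an RNA-seq count table, and all 45 were among the 15834 genes with enough reads to test. Kasumi-1, an established line of human acute myeloid leukaemia cells carrying the RUNX1-RUNX1T1 fusion, was studied with FIP1L1 knocked down; FIP1L1 belongs to the complex that cuts and polyadenylates pre-mRNA. With shRNA 1, 31 of the 45 genes (68.9%) fell and 2 (4.44%) rose, beside 28.7% lower and 28.6% higher among all genes tested. With shRNA 2, 11 (24.4%) fell and 14 (31.1%) rose, near the 25.3% lower and 24.7% higher among all genes tested.

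The 12 RNA-seq libraries formed 3 groups of 4: cells with FIP1L1 shRNA 1, cells with FIP1L1 shRNA 2, and cells with a control shRNA. Every group, the control included, consisted of Kasumi-1 cells infected with a lentivirus, selected with puromycin and grown in RPMI with 10% fetal bovine serum. The sources used here do not give the time from infection to harvest. The labels call the replicates biological without saying that they came from separate infections, so p-values measure only the spread between these samples, which may be technical. In bulk RNA, fewer cells that express a gene and less of its RNA per cell cannot be told apart.

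Origins are licensed in G1, when the origin recognition complex, CDC6 and CDT1 load the MCM2-7 ring onto DNA. At the start of S phase, cyclin E with CDK2 and other kinases promote the joining of CDC45 and the GINS complex to that ring, which makes it an active helicase, and polymerase alpha with primase, the PCNA clamp and polymerases delta and epsilon then copy the strands. Many of these genes are E2F targets and are transcribed around the passage from G1 to S phase, so their RNA is high in dividing leukaemia cells.

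Library totals ran from 12236937 to 20388437 counts, and the 45 genes had between 79 and 14045 counts per library. Values are given in CPM, the read count relative to the library size after scaling by the TMM method. Correlations of log2 CPM across genes between libraries of a group ran from 0.968 to 0.991. The shRNA 1 libraries were the least alike: every pair but replicates 3 and 4 (0.988) correlated less than any pair of shRNA 2 or control libraries. All 8 markers of Kasumi-1 and myeloid progenitors were detected in every library, and their summed level was 8110 to 10400 CPM with shRNA 1, 10900 to 13500 CPM with shRNA 2 and 17900 to 20000 CPM in control cells. Most of that sum was MPO, myeloperoxidase, with 6060 to 8530 CPM with shRNA 1, 8360 to 10900 CPM with shRNA 2 and 15400 to 17300 CPM in control cells. CD34 and RUNX1T1 were also lowest with shRNA 1 and highest in control cells. With shRNA 1, with shRNA 2 and in control cells, CD34 had 43.7 to 55.2, 166 to 189 and 220 to 298 CPM. RUNX1T1 had 65.8 to 81.5, 138 to 149 and 168 to 195 CPM. RUNX1 and KIT lay below control in every shRNA 1 library, while shRNA 2 and control overlapped. The remaining markers did not follow MPO. CD33 had 54.4 to 68.1, 177 to 190 and 61.8 to 80.3 CPM with shRNA 1, with shRNA 2 and in control cells. In every library of either shRNA, SPI1 and PTPRC were above their highest control level. Among markers of other cell types, COL1A2, COL3A1, DCN, MS4A1 and HBB were at 0 in every library. EPCAM averaged 42.3, 138 and 134 CPM with shRNA 1, with shRNA 2 and in control cells, while the other epithelial markers KRT8, KRT18 and CDH1 stayed under 1 CPM. The part of these marker levels in the results was not tested.

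FIP1L1 itself had 14.1, 14.7, 15.1 and 17.6 CPM with shRNA 1, 20.2, 20.2, 19.1 and 18.7 CPM with shRNA 2, and 42.2, 38.9, 44.1 and 40.2 CPM in control cells. Every library of either shRNA lay below every control library. The log2 change against control was -1.43 ± 0.10 (SE) with shRNA 1 (edgeR adjusted p = 1.92e-11), and with shRNA 2 it was -1.08 ± 0.10 (edgeR adjusted p = 3.01e-09). FIP1L1 was 0.35 ± 0.10 higher on the log2 scale with shRNA 2 than with shRNA 1 (edgeR adjusted p = 0.00415).

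With shRNA 1 the fall was uneven over the steps of replication. All genes of the MCM2-7 helicase, helicase activation, Okazaki fragment joining and nucleotide supply fell. Median log2 changes were near 0 for the sliding clamp and loader (-0.059), single-strand binding (-0.055), priming (-0.069) and S phase entry (0.012). A gene was called higher or lower where the edgeR quasi-likelihood test, adjusted by the Benjamini-Hochberg method over all 15834 genes, gave a p under 0.05. By that rule 31 of 45 genes (68.9%) were lower and 2 (4.44%) higher than in control cells, beside 28.7% lower and 28.6% higher among all genes tested. The median log2 change of the 45 genes was -0.45, against 0.02 over all genes tested, and 6 genes changed more than 2-fold. In 30 genes every shRNA 1 library was below every control library, and in 2, PRIM1 and PRIM2, every shRNA 1 library was above. The 2 genes called higher were PRIM2, a primase subunit, and CCNE2, cyclin E2. The shRNA 1 and control libraries of CCNE2 overlapped, and PRIM1 was not called. Without TMM scaling, on library totals alone, 25 members were lower and 8 higher, beside 20.4% lower and 39.9% higher among all genes tested. The median of all genes moved to 0.21 in that setting. The calls lost there were GMNN, RFC2, POLA2, POLE2, FEN1 and TYMS, and those gained, all higher, were ORC3, PCNA, RFC4, RPA3, PRIM1 and E2F1. A change of scaling factors moves every gene of a comparison alike, so the distance of the members' median from that of all genes, -0.47, could not differ between these settings.

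With shRNA 2 the same 45 genes split in both directions. Of them 14 (31.1%) were higher and 11 (24.4%) lower than in control cells, beside 24.7% higher and 25.3% lower among all genes tested, which is near the background. Their median log2 change was 0.03, against 0.00 over all genes tested, and 3 genes, PCNA, CCNE2 and RRM2, changed more than 2-fold. The comparisons of shRNA 1 and of shRNA 2 with control share the 4 control libraries. Set directly against shRNA 1, shRNA 2 gave 31 genes higher and 4 lower, beside 29.3% higher and 29.4% lower among all genes tested. The 4 lower genes were ORC3, CDT1, PCNA and PRIM1. The median difference was 0.52, against -0.02 over all genes tested, and in 32 genes every shRNA 2 library was above every shRNA 1 library.

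**Figure D1:**
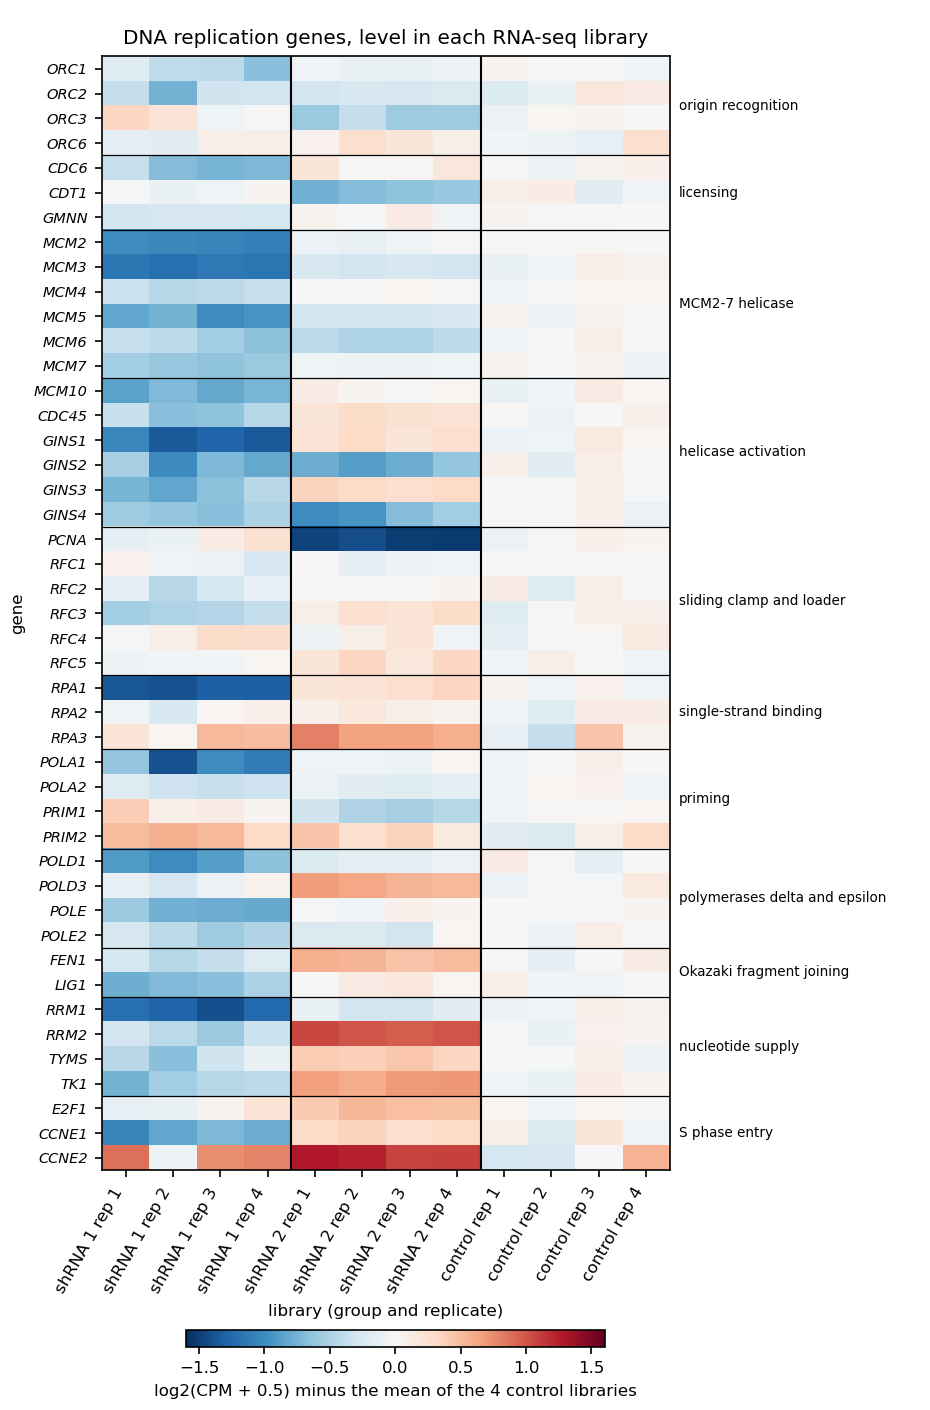
Level of each of the 45 genes (rows, by role) in each of the 12 libraries (columns, 4 per group), as log2(CPM + 0.5) minus the mean of the 4 control libraries; blue is lower and red higher. The shRNA 1 columns are blue in most rows, whereas the shRNA 2 columns hold dark blue for PCNA and red for RRM2, TK1 and CCNE2.

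Each shRNA 1 library by itself showed the fall, with a median of the 45 genes between -0.46 and -0.36 on the log2 scale relative to the control mean. The medians were 0.00 to 0.04 in the shRNA 2 libraries and -0.04 to 0.07 in the control libraries. The summed level of the 45 genes was 4290 to 4567 CPM with shRNA 1, 6567 to 6738 CPM with shRNA 2 and 6370 to 6708 CPM in control cells. The shRNA 1 libraries therefore lay below all others in that sum, and the shRNA 2 and control libraries overlapped.

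**Figure D2:**
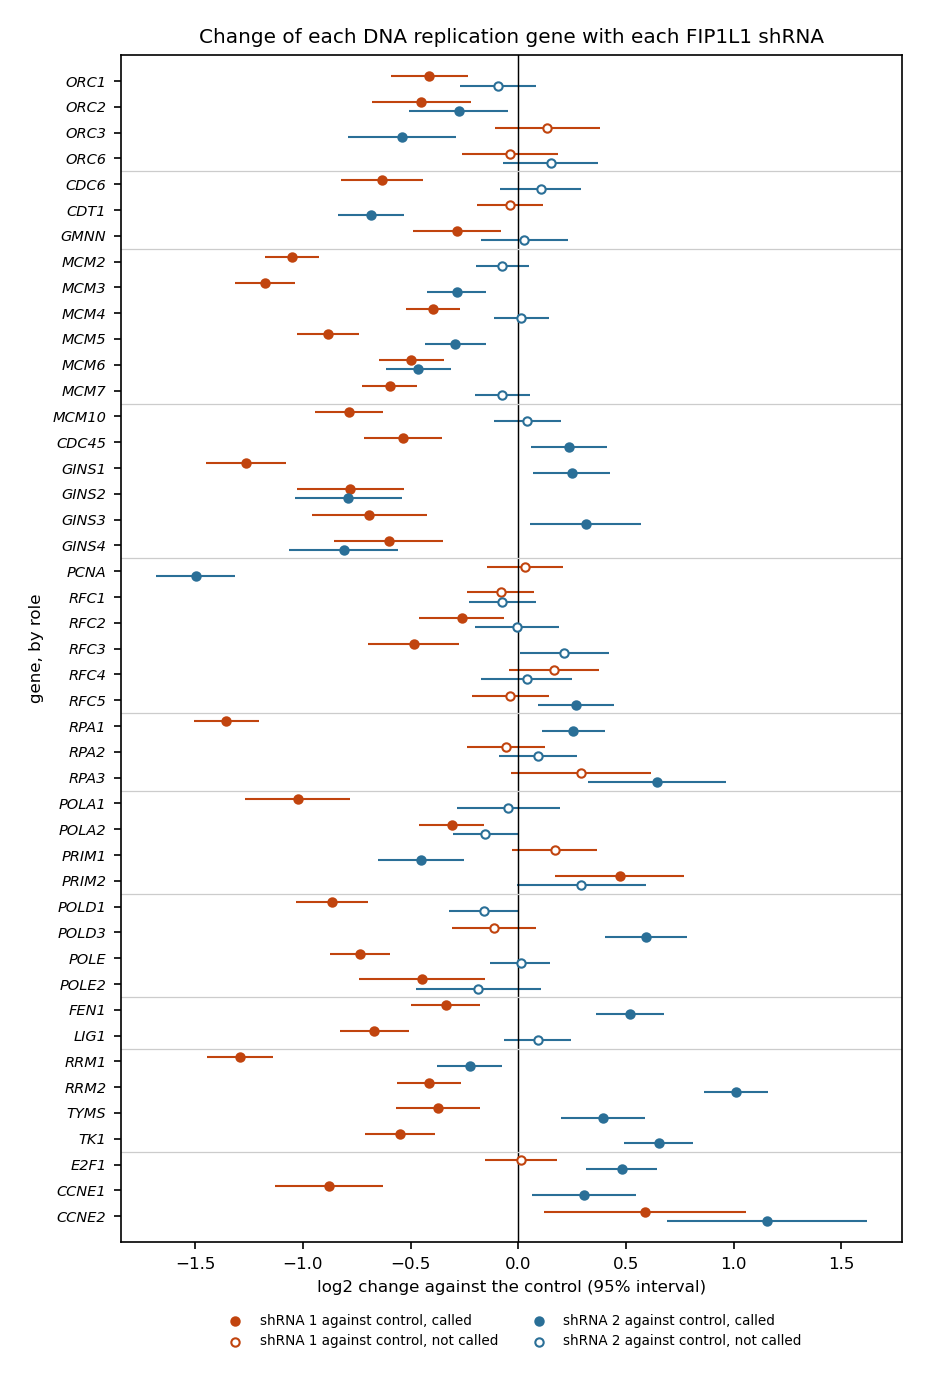
Log2 change of each of the 45 genes against control with shRNA 1 (orange, upper) and shRNA 2 (blue, lower), with 95% intervals from the fit on 4 libraries per group; filled points passed the adjusted threshold and open points did not. The MCM2-7 and helicase activation genes lie left of 0 with shRNA 1, and the lowest shRNA 2 point is PCNA at -1.50.

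Per kilobase of exon, which allows levels of different genes to be compared, the members differed widely. TK1 was highest in control cells, with 119 ± 12.3, 274 ± 8.03 and 174 ± 11.8 CPM per kb with shRNA 1, with shRNA 2 and in control cells (SD, n = 4 each). MCM7 followed with 160 ± 7.38 CPM per kb in control cells, a level whose spread overlaps that of TK1, and MCM2 with 132 ± 1.46. The lowest were GINS3 at 3.11 ± 0.131, PRIM2 at 2.61 ± 0.47 and CCNE2 at 1.94 ± 0.615 CPM per kb in control cells, and the spread of PRIM2 overlaps those of GINS3 and CCNE2. With 79 to 391 counts per library, CCNE2 was also among the least precisely measured.

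The promoter windows of 3 members with different patterns, shown for their E2F words, run from 250 bases before to 50 bases after the RefSeq start on GRCh38.p14, on the gene's strand, 5′ to 3′, with capitals marking the E2F words TTTGGCGC, TTTGCCGC, TTTCGCGC and TTTCCCGC in either orientation. MCM6 (chr2:135876394-135876693, minus strand) fell with both shRNAs, GINS1 (chr20:25407423-25407722, plus strand) fell with shRNA 1 and rose with shRNA 2, and PCNA (chr20:5126573-5126872, minus strand) fell with shRNA 2. They were picked after their values were seen, and all 3 hold an E2F word, as do 19 of the 38 members with a window.
MCM6: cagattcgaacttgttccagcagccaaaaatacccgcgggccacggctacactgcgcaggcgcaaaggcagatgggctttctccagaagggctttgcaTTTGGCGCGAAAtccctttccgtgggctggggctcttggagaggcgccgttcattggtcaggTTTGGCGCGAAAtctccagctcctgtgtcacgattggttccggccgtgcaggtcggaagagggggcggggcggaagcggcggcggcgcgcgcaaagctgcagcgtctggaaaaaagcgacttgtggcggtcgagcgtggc
GINS1: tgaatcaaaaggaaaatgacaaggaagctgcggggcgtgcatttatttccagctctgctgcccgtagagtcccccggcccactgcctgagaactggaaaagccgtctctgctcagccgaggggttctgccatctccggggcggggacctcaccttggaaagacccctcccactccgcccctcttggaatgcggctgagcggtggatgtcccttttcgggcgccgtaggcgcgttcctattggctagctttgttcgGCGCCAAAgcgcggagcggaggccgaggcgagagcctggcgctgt
PCNA: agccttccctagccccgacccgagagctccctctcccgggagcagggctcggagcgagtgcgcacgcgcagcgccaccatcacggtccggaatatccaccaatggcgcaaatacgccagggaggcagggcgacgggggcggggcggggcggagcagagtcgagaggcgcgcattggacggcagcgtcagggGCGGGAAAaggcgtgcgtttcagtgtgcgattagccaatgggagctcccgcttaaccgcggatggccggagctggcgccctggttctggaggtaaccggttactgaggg
In MCM6 each capital run holds overlapping words on both strands. A RefSeq window was given for 38 of the 45 members, and those with an E2F word are 50% of these, beside 3.31% of all 35116 promoters in the table and 5.13% of the 10848 promoters of tested genes. The CCAAT box, searched as CCAAT on both strands, was in 22 member windows (57.9%), beside 34.6% of all promoters and 36.4% of those of tested genes. The CHR words TTTGAA and TTCGAA, the second of which is its own reverse complement, were in 2 (5.26%), beside 16.4% and 11.3%. Of the 19 members with an E2F word, 15 fell with shRNA 1, with a median log2 change of -0.60, and of the 19 without one, 13 fell and 1 rose, with a median of -0.41. With shRNA 2, 4 members with an E2F word rose and 6 fell, and 7 without one rose and 3 fell. Of the 22 members with a CCAAT box, 15 fell with shRNA 1, and of the 16 without one, 13 fell and 1 rose. With shRNA 2, 6 members with a CCAAT box rose and 8 fell, and 5 without one rose and 1 fell. Among all genes tested, 28.7% fell and 28.6% rose with shRNA 1, and 25.3% fell and 24.7% rose with shRNA 2. A word match describes the letters of the window and is not evidence of binding.

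Of the 4 origin recognition genes, ORC1 and ORC2 fell with shRNA 1, and ORC2 and ORC3 fell with shRNA 2. Among all genes tested, 28.7% fell with shRNA 1 and 25.3% with shRNA 2. ORC2, a core subunit of the complex, had 38.0, 29.4, 39.9 and 40.1 CPM with shRNA 1, 40.6, 41.6, 41.3 and 42.4 CPM with shRNA 2, and 42.8, 46.4, 56.7 and 54.8 CPM in control cells. All libraries of either shRNA lay below the lowest control library, by a small margin for shRNA 2. The log2 changes were -0.45 ± 0.10 and -0.28 ± 0.10 (SE; edgeR adjusted p = 0.000631 and 0.0268). The shRNA 2 call was lost on library totals alone (adjusted p = 0.119), without control replicate 3 (0.112) or 4 (0.0958) and without shRNA 2 replicate 1 (0.0625), 2 (0.0549) or 3 (0.058). ORC1, the subunit whose level follows the cell cycle, fell with shRNA 1 by 0.41 (edgeR adjusted p = 9.44e-05) and was not called with shRNA 2 (-0.09). ORC3, another core subunit, fell with shRNA 2 to 16.1 ± 1.21 CPM, against 23.4 ± 1.06 CPM in control cells (SD, n = 4 each; log2 change -0.54, edgeR adjusted p = 0.000274), and was not called with shRNA 1, where it averaged 25.7 ± 3.47 CPM (difference of shRNA 2 from shRNA 1 -0.68, edgeR adjusted p = 1.26e-05). ORC6 was called with neither shRNA (-0.04 and 0.15), though without control replicate 4 its shRNA 2 value of 0.25 passed (adjusted p = 0.0407). Reads of ORC2 cannot be told from those of an overlapping gene on the other strand.

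The licensing factors differed from each other. CDC6, which loads MCM2-7 together with the origin recognition complex, had 57.4, 45.7, 44.2 and 45 CPM with shRNA 1, 85.3, 75.4, 75.3 and 84.7 CPM with shRNA 2, and 72.7, 69.4, 77.4 and 78.5 CPM in control cells. It was low in all 4 shRNA 1 libraries (log2 change -0.63 ± 0.08, edgeR adjusted p = 9.19e-07), while shRNA 2 and control overlapped (0.11, 95% interval -0.08 to 0.29). CDT1, its partner in loading, had 293, 274, 282 and 306 CPM with shRNA 1, 174, 182, 189 and 194 CPM with shRNA 2, and 317, 320, 262 and 288 CPM in control cells. Here the shRNA 2 libraries were the low ones (-0.68 ± 0.07, edgeR adjusted p = 1.77e-08), and shRNA 1 and control overlapped (-0.04, interval -0.19 to 0.12). Between the shRNAs the difference, shRNA 2 minus shRNA 1, was 0.74 for CDC6 and -0.64 for CDT1 (edgeR adjusted p = 8.12e-08 and 2.53e-08). GMNN, geminin, which inhibits CDT1, fell with shRNA 1 by 0.28 (edgeR adjusted p = 0.00941) and was not called with shRNA 2 (0.03).

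All 6 genes of the MCM2-7 ring fell with shRNA 1, by 0.40 to 1.18 on the log2 scale, beside 28.7% of all genes tested. MCM3 had 138, 133, 139 and 137 CPM with shRNA 1, 257, 251, 257 and 249 CPM with shRNA 2, and 283, 298, 333 and 322 CPM in control cells. MCM2 had 321, 317, 307 and 301 CPM with shRNA 1, 607, 595, 615 and 640 CPM with shRNA 2, and 645, 638, 656 and 644 CPM in control cells. Both were at less than 50% of the control mean with shRNA 1 (44.2% for MCM3 and 48.2% for MCM2), and no shRNA 1 library came near the other groups. Their log2 changes with shRNA 1 were -1.18 ± 0.06 and -1.05 ± 0.06 (edgeR adjusted p = 1.94e-13 and 2.31e-13). With shRNA 2, MCM3 fell slightly (-0.29 ± 0.06, edgeR adjusted p = 0.000392) and MCM2 was not called (-0.07, interval -0.20 to 0.05).

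MCM5 and MCM6 fell with both shRNAs. MCM5 had 166, 175, 147 and 153 CPM with shRNA 1, 241, 240, 238 and 247 CPM with shRNA 2, and 306, 278, 308 and 291 CPM in control cells. Its 3 groups did not overlap, with shRNA 2 in between (log2 changes -0.89 ± 0.06 for shRNA 1 and -0.29 ± 0.06 for shRNA 2, edgeR adjusted p = 4.06e-11 and 0.000447). MCM6 had 154, 148, 136 and 126 CPM with shRNA 1, 147, 141, 141 and 148 CPM with shRNA 2, and 189, 195, 212 and 199 CPM in control cells. The shRNA groups overlapped each other and both lay below control (-0.50 ± 0.07 and -0.46 ± 0.07, edgeR adjusted p = 9.67e-07 and 3.75e-06). The difference of shRNA 2 from shRNA 1 was 0.03 for MCM6, with an interval of -0.12 to 0.18. MCM4 and MCM7 fell with shRNA 1 by 0.40 and 0.60 (edgeR adjusted p = 1.8e-06 and 4.53e-09), and their shRNA 2 values of 0.01 and -0.07 were not called. MCM2 and MCM7 overlap genes on the other strand, TPRA1 and AP4M1, whose reads could not be told apart from theirs.

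The factors that turn the loaded ring into a helicase also fell with shRNA 1, all 6 of them, beside 28.7% of all genes tested. GINS1 had 33.4, 27.1, 28.5 and 27.2 CPM with shRNA 1, 80.8, 87.3, 79.6 and 84.1 CPM with shRNA 2, and 65.2, 66.1, 76.7 and 71.2 CPM in control cells. GINS3 had 9.26, 8.74, 9.92 and 11.5 CPM with shRNA 1, 20.4, 19.7, 19.2 and 19.7 CPM with shRNA 2, and 15.5, 15.5, 16.9 and 15.7 CPM in control cells. For both GINS subunits the 3 groups were separate, with shRNA 1 lowest and shRNA 2 highest. The log2 change of GINS1 was -1.26 ± 0.08 with shRNA 1 (edgeR adjusted p = 7.12e-12) and 0.25 ± 0.08 with shRNA 2 (edgeR adjusted p = 0.0111). GINS3 changed by -0.69 ± 0.12 and 0.32 ± 0.11 (edgeR adjusted p = 2.57e-05 and 0.0247). The shRNA 2 call of GINS3 was lost without control replicate 1 (adjusted p = 0.053), 2 (0.054) or 4 (0.0525), without shRNA 2 replicate 1 (0.0629), and without the filter on low counts (0.0614).

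GINS2 and GINS4, the other subunits of that complex, fell with both shRNAs. GINS2 had 24.9, 17.6, 21.8 and 20.3 CPM with shRNA 1, 20.6, 19.3, 20.6 and 23.3 CPM with shRNA 2, and 38.3, 32.1, 38.9 and 35.5 CPM in control cells. GINS4 had 18.1, 17.4, 16.9 and 18.9 CPM with shRNA 1, 13.2, 13.8, 16.5 and 18.2 CPM with shRNA 2, and 26.8, 27.5, 28.6 and 25.4 CPM in control cells. Control libraries were high for both, and the shRNA groups overlapped each other. GINS2 changed by -0.78 ± 0.11 for shRNA 1 and -0.79 ± 0.11 for shRNA 2 (edgeR adjusted p = 1.93e-06 and 2.37e-06). GINS4 changed by -0.60 ± 0.11 and -0.81 ± 0.11 (edgeR adjusted p = 6.76e-05 and 2.3e-06). The difference of shRNA 2 from shRNA 1 was -0.01 for GINS2 (interval -0.26 to 0.24) and -0.21 for GINS4 (interval -0.46 to 0.05), against 1.51 for GINS1 and 1.01 for GINS3. In 3 of 21 alternatives, among them without shRNA 2 replicate 4, GINS4 was lower with shRNA 2 than with shRNA 1 (-0.29, adjusted p = 0.0433 without that library). GINS2, GINS3 and GINS4 overlap exons of genes on the other strand.

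CDC45, which sits with GINS on the ring, fell with shRNA 1 to 38.8 ± 4.05 CPM and rose with shRNA 2 to 66.1 ± 2.23 CPM, against 56.0 ± 2.52 CPM in control cells (SD, n = 4 each). The log2 changes were -0.53 and 0.24 (edgeR adjusted p = 4.51e-06 and 0.0146). MCM10, needed for the ring to start unwinding, averaged 50.5 ± 2.45 CPM with shRNA 1, 89.7 ± 3.07 CPM with shRNA 2 and 87.1 ± 6.58 CPM in control cells. It was low with shRNA 1 (-0.79, edgeR adjusted p = 1.7e-09) and not called with shRNA 2 (0.04, interval -0.11 to 0.20).

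PCNA, the sliding clamp that holds polymerases on DNA, had the lowest shRNA 2 value of the 45 genes and was not called with shRNA 1. Its libraries had 125, 129, 152 and 165 CPM with shRNA 1, 49.7, 51.9, 48.4 and 47.7 CPM with shRNA 2, and 130, 137, 147 and 144 CPM in control cells. The 4 shRNA 2 libraries were at 35.4% of the control mean, far below both other groups, which overlapped. The log2 change was -1.50 ± 0.08 with shRNA 2 (edgeR adjusted p = 8.26e-13) and 0.03 with shRNA 1 (interval -0.15 to 0.21), and the difference of shRNA 2 from shRNA 1 was -1.53 ± 0.08 (edgeR adjusted p = 2.17e-13). PCNA lies on chromosome 20 at 5114953 to 5126626, minus strand, on GRCh38. The count table also holds the pseudogenes PCNAP1, PCNAP3 and PCNAP4, so reads may have been split with them or dropped.

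Of the 5 genes of the clamp loader, which opens PCNA onto DNA, 2 fell with shRNA 1 and 1 rose with shRNA 2. Among all genes tested, 28.7% fell with shRNA 1 and 24.7% rose with shRNA 2. RFC3 fell with shRNA 1 to 22.8 ± 1.14 CPM and averaged 37.1 ± 2.3 CPM with shRNA 2 and 32 ± 2.87 CPM in control cells (log2 changes -0.49 and 0.21, edgeR adjusted p = 0.000107 and 0.0547). Its shRNA 2 value passed in 9 of 21 alternatives, among them DESeq2 (adjusted p = 0.0402), upper quartile factors (0.0301) and library totals alone (0.00939). Others of the 9 left out control replicate 3 (0.0486), shRNA 1 replicate 1 (0.0436) or shRNA 2 replicate 1 (0.0384). RFC2 fell with shRNA 1 by 0.26 (edgeR adjusted p = 0.0124), a call lost without shRNA 1 replicate 2 (0.051), with upper quartile factors (0.102) and on library totals alone (-0.07, 0.504), and was not called with shRNA 2 (-0.01). RFC5 rose with shRNA 2 by 0.27 (edgeR adjusted p = 0.00649) and had -0.04 with shRNA 1, not called. RFC1, the large subunit, and RFC4 were called with neither shRNA. RFC1 averaged 148 ± 14.2, 149 ± 7.52 and 157 ± 1.8 CPM with shRNA 1, with shRNA 2 and in control cells, and its interval was -0.24 to 0.07 with shRNA 1 and -0.23 to 0.08 with shRNA 2. RFC4 had 0.17 and 0.04, and passed with shRNA 1 without shRNA 1 replicate 1 (0.23, adjusted p = 0.0338). RFC4 and RFC5 overlap EIF4A2 and WSB2 on the other strand, and RFC3 and RFC5 each have a pseudogene in the table.

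Of the 3 subunits of RPA, which coats single-stranded DNA, RPA1 was called with both shRNAs, RPA3 with shRNA 2 and RPA2 with neither. RPA1, the large subunit, had 37.9, 37.3, 39.8 and 39.9 CPM with shRNA 1, 113, 115, 119 and 126 CPM with shRNA 2, and 103, 94.7, 104 and 94.8 CPM in control cells. Its shRNA 1 libraries were all under 40 CPM and its shRNA 2 libraries were all above the highest control library. The log2 change was -1.36 ± 0.07 with shRNA 1, the lowest of the 45 genes, and 0.26 ± 0.06 for shRNA 2 (edgeR adjusted p = 7.85e-14 and 0.00197). The difference of shRNA 2 from shRNA 1 was 1.61 ± 0.07 (edgeR adjusted p = 4.47e-15). RPA1 lies on chromosome 17 at 1829702 to 1900082, plus strand, on GRCh38, and overlaps SMYD4 on the other strand.

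RPA3, the small subunit, had 25.4, 22.4, 31.6 and 30.9 CPM with shRNA 1, 38.6, 34.5, 34.5 and 32.9 CPM with shRNA 2, and 19.9, 16.7, 30.1 and 22.8 CPM in control cells. Control replicate 3 was high, shRNA 1 overlapped control, and shRNA 2 lay above both. RPA3 rose with shRNA 2 by 0.64 ± 0.14 (edgeR adjusted p = 0.000755) and had 0.29 with shRNA 1 (edgeR adjusted p = 0.0882). The shRNA 1 value passed without control replicate 3 (0.46, adjusted p = 0.00514) or shRNA 1 replicate 2 (0.38, adjusted p = 0.0302). The difference of shRNA 2 from shRNA 1, 0.35 (edgeR adjusted p = 0.0358), was lost without shRNA 1 replicate 1 (0.0804) or 2 (0.121) and without shRNA 2 replicate 1 (0.0975), 2 (0.0538) or 3 (0.0543). RPA2, the middle subunit, was not called with either shRNA (-0.05 and 0.09) and averaged 87.0 ± 8.31, 96.3 ± 3.37 and 90.2 ± 9.45 CPM with shRNA 1, with shRNA 2 and in control cells. Without shRNA 1 replicate 4 it was higher with shRNA 2 than with shRNA 1 (0.19, adjusted p = 0.0432). RPA3 overlaps UMAD1 on the other strand, and RPA2 has 3 pseudogenes in the table.

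The polymerase alpha and primase genes, which make the primers, moved apart. POLA1, the catalytic subunit of polymerase alpha, had 51.3, 30.0, 39.6 and 36.4 CPM with shRNA 1, 76.6, 75.9, 75.6 and 81.5 CPM with shRNA 2, and 76.8, 78.9, 84.3 and 79.6 CPM in control cells. The shRNA 1 libraries were low and spread, and the other groups overlapped (log2 changes -1.02 ± 0.11 and -0.05 ± 0.11, edgeR adjusted p = 6.76e-08 and 0.744). PRIM1, the catalytic subunit of primase, had 55.5, 44.8, 46.3 and 43.6 CPM with shRNA 1, 33.7, 30.1, 29 and 30.7 CPM with shRNA 2, and 40.3, 42.9, 42.7 and 43.2 CPM in control cells. It was low with shRNA 2 (-0.45 ± 0.09, edgeR adjusted p = 0.000181), and with shRNA 1 all libraries lay just above control without passing the threshold (0.17, edgeR adjusted p = 0.102). The shRNA 1 value passed with upper quartile factors (adjusted p = 0.0114), with at least 10 counts in every library (0.0449) and on library totals alone (0.000819).

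PRIM2, the regulatory subunit of primase, had 17.2, 18, 17.4 and 15.1 CPM with shRNA 1, 16.6, 14.4, 15.5 and 13.5 CPM with shRNA 2, and 10.6, 10.2, 12.8 and 15 CPM in control cells. Its shRNA 1 libraries lay above all controls, if barely above control replicate 4, and shRNA 2 overlapped control. It rose with shRNA 1 by 0.47 ± 0.13 (edgeR adjusted p = 0.00403) and had 0.29 with shRNA 2 (edgeR adjusted p = 0.0709), which passed without control replicate 4 (0.41, adjusted p = 0.0174). POLA2, the accessory subunit of polymerase alpha, fell with shRNA 1 by 0.31 (edgeR adjusted p = 0.000385). With shRNA 2 it had -0.15 (edgeR adjusted p = 0.0609), which passed without shRNA 1 replicate 1 (0.0417) and with only the groups compared (0.029). Its difference of shRNA 2 from shRNA 1, 0.16 (edgeR adjusted p = 0.0478), was lost in 15 of 21 alternatives. Of these, 8 left out 1 library, namely control replicates 2 and 4, shRNA 1 replicates 2, 3 and 4, and shRNA 2 replicates 1, 2 and 4 (adjusted p 0.0517 to 0.118). Among the rest were RLE factors (0.0528), upper quartile factors (0.291), no filter on low counts (0.0747) and library totals alone (0.551). PRIM1 overlaps NACA on the same strand and HSD17B6 on the other, and its value is uncertain to that extent.

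Of the replicative polymerases, the catalytic subunits fell with shRNA 1 and neither was called with shRNA 2. POLE, the catalytic subunit of the leading-strand polymerase epsilon, had 488, 430, 422 and 416 CPM with shRNA 1, 718, 708, 770 and 751 CPM with shRNA 2, and 736, 718, 715 and 755 CPM in control cells. POLD1, that of the lagging-strand polymerase delta, had 100, 93.2, 102 and 119 CPM with shRNA 1, 162, 170, 168 and 176 CPM with shRNA 2, and 205, 190, 170 and 188 CPM in control cells. In both genes shRNA 1 was separate from the rest, and shRNA 2 overlapped control. POLE changed by -0.74 ± 0.06 with shRNA 1 (edgeR adjusted p = 6.18e-10) and 0.01 with shRNA 2, and POLD1 by -0.86 ± 0.07 (edgeR adjusted p = 7.4e-10) and -0.16. The shRNA 2 value of POLD1 passed without control replicate 3 (-0.20, adjusted p = 0.0322) or shRNA 1 replicate 4 (adjusted p = 0.0376).

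POLD3, an accessory subunit of polymerase delta, had 36.7, 33.2, 37.8 and 42.0 CPM with shRNA 1, 64.4, 62.2, 59.1 and 58.1 CPM with shRNA 2, and 37.7, 39.4, 39.4 and 44.8 CPM in control cells. It was high in the shRNA 2 libraries (0.59 ± 0.08, edgeR adjusted p = 3.23e-06), while shRNA 1 and control overlapped (-0.11, interval -0.30 to 0.08). POLE2, the second subunit of polymerase epsilon, fell with shRNA 1 by 0.45 (edgeR adjusted p = 0.00506) and had -0.18 with shRNA 2, not called. Its difference of shRNA 2 from shRNA 1 was 0.26 (edgeR adjusted p = 0.0846) and passed without shRNA 1 replicate 1 (0.33, adjusted p = 0.0414).

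FEN1 and LIG1, which trim and join Okazaki fragments, both fell with shRNA 1. FEN1 had 89.3, 78.4, 82.8 and 93.5 CPM with shRNA 1, 161, 158, 149 and 154 CPM with shRNA 2, and 109, 97.6, 110 and 117 CPM in control cells. The groups were separate, with control in the middle (log2 changes -0.34 ± 0.07 and 0.52 ± 0.07, edgeR adjusted p = 0.000276 and 1.57e-06). On library totals alone the shRNA 1 call of FEN1 was lost (-0.14, adjusted p = 0.0752). LIG1 averaged 68.1 ± 5.58 CPM with shRNA 1, 115 ± 6.55 CPM with shRNA 2 and 108 ± 4.84 CPM in control cells (SD, n = 4 each). It fell with shRNA 1 by 0.67 (edgeR adjusted p = 2.51e-08) and was not called with shRNA 2 (0.09, interval -0.07 to 0.25). FEN1 overlaps FADS2 on the same strand and TMEM258 on the other, and has a pseudogene in the table.

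The 4 nucleotide supply genes all fell with shRNA 1, and 3 of them rose with shRNA 2. Among all genes tested, 28.7% fell with shRNA 1 and 24.7% rose with shRNA 2. RRM2, the S phase subunit of ribonucleotide reductase, had 170, 155, 140 and 165 CPM with shRNA 1, 441, 420, 411 and 421 CPM with shRNA 2, and 209, 194, 220 and 216 CPM in control cells. TK1, the cytosolic thymidine kinase, had 191, 219, 235 and 242 CPM with shRNA 1, 508, 489, 519 and 522 CPM with shRNA 2, and 312, 301, 351 and 332 CPM in control cells. In both genes the 3 groups were separate, with shRNA 2 far above the others, at 202% of the control mean for RRM2 and 157% for TK1. RRM2 changed by -0.41 ± 0.07 for shRNA 1 and 1.01 ± 0.07 for shRNA 2 (edgeR adjusted p = 1.08e-05 and 1.7e-11). TK1 changed by -0.55 ± 0.07 and 0.65 ± 0.07 (edgeR adjusted p = 6.27e-07 and 6.65e-08). TYMS, thymidylate synthase, went the same way with smaller values, -0.37 and 0.39 (edgeR adjusted p = 0.000787 and 0.000514), but shares exons with TYMSOS and ENOSF1 on the other strand. RRM2 and TYMS have pseudogenes in the table.

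RRM1, the large subunit of ribonucleotide reductase, had 79.8, 75.3, 69.2 and 77.5 CPM with shRNA 1, 170, 150, 150 and 162 CPM with shRNA 2, and 173, 179, 195 and 192 CPM in control cells. Both shRNA groups lay below control, shRNA 1 by far and shRNA 2 by little. The log2 change was -1.29 ± 0.07 with shRNA 1 (edgeR adjusted p = 2.45e-13) and -0.23 ± 0.07 with shRNA 2 (edgeR adjusted p = 0.00706), the second of which was lost on library totals alone (-0.14, adjusted p = 0.0528). With shRNA 2 the subunits of the same enzyme therefore moved in opposite directions, RRM1 to 158 ± 10.1 CPM against 185 ± 10.5 CPM in control cells, and RRM2 to 423 ± 13 CPM against 210 ± 11.3 CPM in control cells (SD, n = 4 each). RRM1 lies on chromosome 11 at 4094707 to 4138876, plus strand, on GRCh38, opposite RRM1-AS1.

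Of the genes of S phase entry, all 3 rose with shRNA 2, beside 24.7% of all genes tested. CCNE1, cyclin E1, had 11.9, 14, 15.2 and 14.4 CPM with shRNA 1, 31.6, 32.6, 30.3 and 31.8 CPM with shRNA 2, and 27.2, 21.5, 29.2 and 24.2 CPM in control cells. It was low with shRNA 1 (-0.88 ± 0.11, edgeR adjusted p = 3.89e-07) and high with shRNA 2 (0.31 ± 0.11, edgeR adjusted p = 0.0202). The shRNA 2 call was lost without control replicate 2 (0.24, adjusted p = 0.0851) or 4 (0.28, adjusted p = 0.0597) or shRNA 2 replicate 2 (0.29, adjusted p = 0.053). E2F1, the transcription factor whose targets include many of the genes described here, had 75.1, 75.8, 85.5 and 95.4 CPM with shRNA 1, 110, 119, 115 and 114 CPM with shRNA 2, and 83.8, 78.7, 83.8 and 82.4 CPM in control cells. The shRNA 2 libraries were high (0.48 ± 0.07, edgeR adjusted p = 8.69e-06), and shRNA 1 overlapped control (0.01, interval -0.15 to 0.18).

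CCNE2, cyclin E2, had 15.6, 7.78, 14.2 and 14.7 CPM with shRNA 1, 20.7, 20.1, 18 and 18.2 CPM with shRNA 2, and 6.73, 6.74, 8.22 and 12.4 CPM in control cells. All shRNA 2 libraries were above all controls, whereas shRNA 1 replicate 2 fell among the controls. The log2 change was 1.16 ± 0.20 with shRNA 2 (edgeR adjusted p = 9.94e-05) and 0.59 ± 0.21 with shRNA 1 (edgeR adjusted p = 0.0204). The shRNA 1 call was lost without control replicate 1 (adjusted p = 0.0694), 2 (0.064) or 3 (0.0528), without shRNA 1 replicate 1 (0.0658), 3 (0.0527) or 4 (0.0538), and with limma-voom (0.0659). The difference of shRNA 2 from shRNA 1 was 0.57 (edgeR adjusted p = 0.0186) and was lost without shRNA 1 replicate 2 (0.38, adjusted p = 0.0518) and on library totals alone (0.0538). CCNE2 overlaps INTS8 on the other strand.

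**Figure D3:**
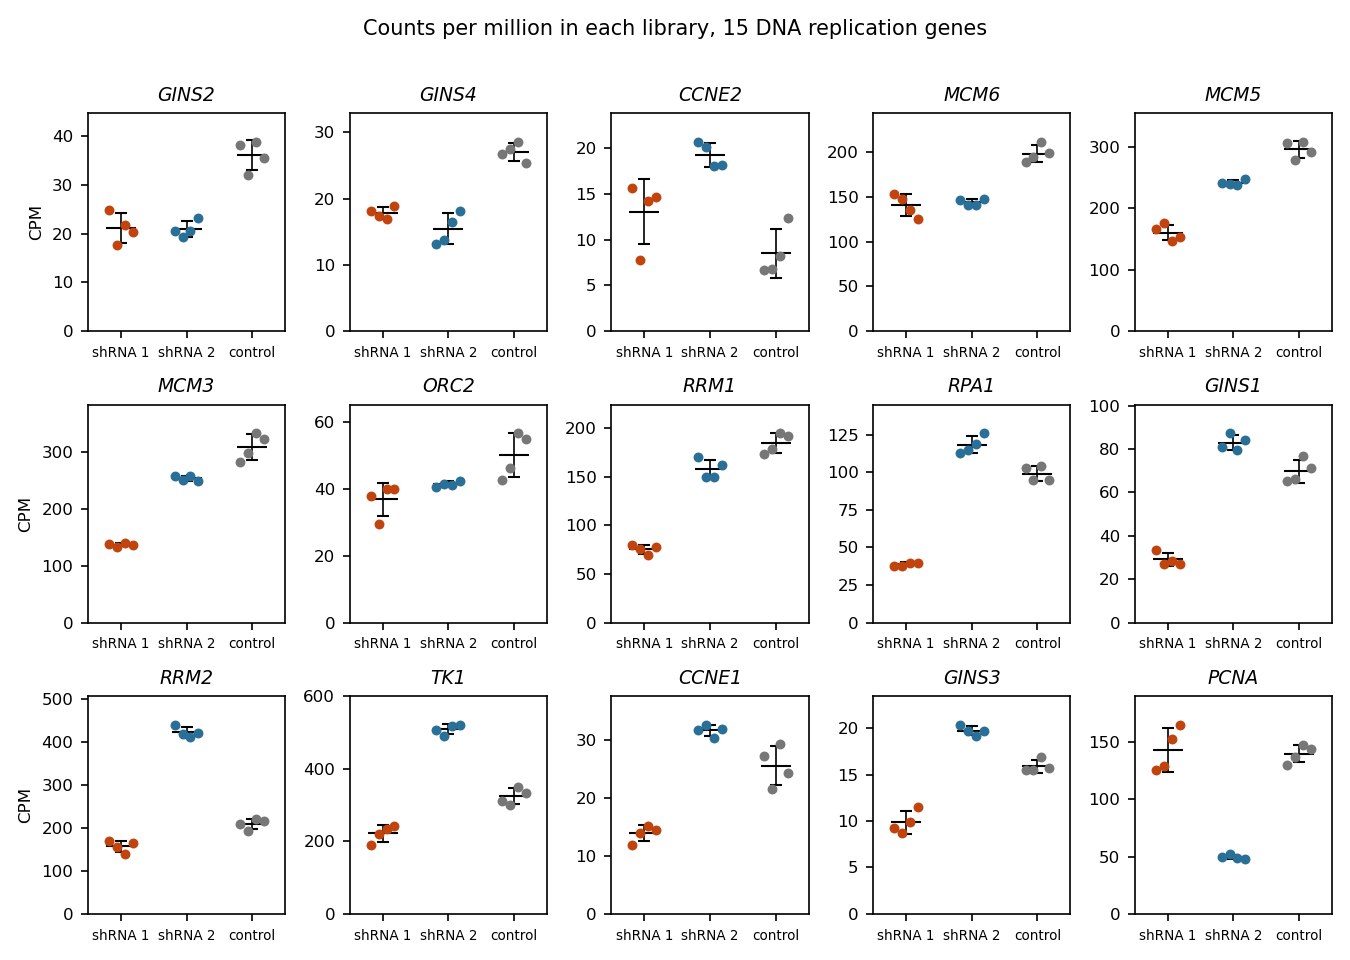
CPM of 15 members in each library (points), with the mean and SD of 4 libraries per group in black; each vertical axis starts at 0. GINS2, GINS4, MCM6, MCM5, MCM3, ORC2 and RRM1 lie below control with both shRNAs, RPA1, GINS1, RRM2, TK1, CCNE1 and GINS3 lie below control with shRNA 1 and above it with shRNA 2, CCNE2 has higher means with both, and PCNA is low with shRNA 2.

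Of 37 other genes of replication tested among 38 listed, such as chromatin assembly, fork protection and accessory polymerase genes, 5 (13.5%) rose and 17 (45.9%) fell with shRNA 1, beside 28.6% higher and 28.7% lower among all genes tested, and 14 (37.8%) rose and 12 (32.4%) fell with shRNA 2, beside 24.7% higher and 25.3% lower. On library totals alone the shRNA 1 split was 7 higher and 13 lower, beside 39.9% higher and 20.4% lower among all genes tested. SSRP1, a subunit of the FACT histone chaperone that travels with the fork, averaged 123 ± 5.36 CPM with shRNA 1, 152 ± 5.29 CPM with shRNA 2 and 334 ± 26.5 CPM in control cells (SD, n = 4 each). It was low with both (log2 changes -1.44 and -1.14, edgeR adjusted p = 1.67e-14 and 1.55e-12). DONSON, a helicase assembly factor, was high with both, at 32.7 ± 2.58, 36.8 ± 1.29 and 17.5 ± 0.895 CPM with shRNA 1, with shRNA 2 and in control cells (0.90 and 1.07, edgeR adjusted p = 1.78e-08 and 1.78e-09). DONSON overlaps SON on the other strand and AP000311.1 on the same strand, whose reads could not be told apart from its own. POLE3, a small subunit of polymerase epsilon, fell with shRNA 1 to 24.0 ± 3.4 CPM against 59.4 ± 8.9 CPM in control cells (-1.31, edgeR adjusted p = 5.33e-10). With shRNA 2 it rose by 0.30 (edgeR adjusted p = 0.0166), a call lost without control replicate 1 (0.0739) or 2 (0.0529) or shRNA 2 replicate 1 (0.0543).

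Among 28 other genes of nucleotide synthesis, 3 (10.7%) rose and 19 (67.9%) fell with shRNA 1, beside 28.6% higher and 28.7% lower among all genes tested, and 4 (14.3%) rose and 16 (57.1%) fell with shRNA 2, beside 24.7% higher and 25.3% lower. On library totals alone 5 were higher and 15 lower with shRNA 1, beside 39.9% higher and 20.4% lower among all genes tested. NME1, a nucleoside diphosphate kinase, fell with shRNA 1 to 14.1 ± 5.68 CPM, against 42.2 ± 8.65 CPM in control cells (SD, n = 4 each; -1.60, edgeR adjusted p = 8.04e-05). With shRNA 2 it averaged 28.5 ± 1.6 CPM, with all libraries below control, and did not pass (-0.57, edgeR adjusted p = 0.0564), but it passed in 7 of 21 alternatives, among them limma-voom (0.0216), only the groups compared (6.66e-05) and without control replicate 2 (0.0437) or shRNA 1 replicate 2 (0.00863), 3 (0.0478) or 4 (0.0323). NME1 overlaps NME1-NME2 on the same strand and has a pseudogene, which makes its value uncertain. IMPDH2, which makes guanine nucleotides, averaged 333 ± 8.49 CPM with shRNA 1, 282 ± 17.1 CPM with shRNA 2 and 602 ± 19.6 CPM in control cells and fell with both (-0.85 and -1.09). RRM2B, the p53-inducible small subunit of ribonucleotide reductase, rose with both, to 71.9 ± 6.83 and 44.4 ± 2.68 CPM against 30.7 ± 1.2 CPM in control cells (1.23 and 0.53, edgeR adjusted p = 1.42e-11 and 1.14e-05). TK2, the mitochondrial thymidine kinase, also rose with both (0.60 and 1.06, edgeR adjusted p = 0.000698 and 7.85e-07).

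Of 38 genes that control G1 and S phase, 8 (21.1%) rose and 20 (52.6%) fell with shRNA 1, beside 28.6% higher and 28.7% lower among all genes tested, and 19 (50%) rose and 12 (31.6%) fell with shRNA 2, beside 24.7% higher and 25.3% lower. On library totals alone the shRNA 1 split was 13 higher and 11 lower, beside 39.9% higher and 20.4% lower among all genes tested. CDKN1A, a cyclin-dependent kinase inhibitor that binds PCNA and is induced by p53, had 3.83, 8.83, 3.91 and 5.92 CPM with shRNA 1, 39.9, 42.8, 28.1 and 26.5 CPM with shRNA 2, and 5.08, 4.61, 3.73 and 4.26 CPM in control cells. It was at 779% of the control mean with shRNA 2 (log2 change 2.96 ± 0.24, edgeR adjusted p = 1.98e-08), and shRNA 1 overlapped control (0.37, edgeR adjusted p = 0.239). CDKN2D, an inhibitor of CDK4 and CDK6, averaged 10.7 ± 3.82 CPM with shRNA 1, 14 ± 0.798 CPM with shRNA 2 and 2.47 ± 1.03 CPM in control cells and rose with both (2.14 and 2.53, edgeR adjusted p = 3.03e-06 and 4.72e-07). CDKN1C, another inhibitor of the family of CDKN1A, was at 1.75 ± 0.685, 1.32 ± 0.503 and 0.598 ± 0.285 CPM with shRNA 1, with shRNA 2 and in control cells, from few counts (1.56 and 1.16, edgeR adjusted p = 0.00629 and 0.0441). Its shRNA 2 call was lost without control replicate 2, 3 or 4, shRNA 1 replicate 3 or 4, or shRNA 2 replicate 2, 3 or 4 (adjusted p 0.0504 to 0.168), with limma-voom (0.0654) and without the filter on low counts (0.0641).

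Of 13 replication checkpoint genes, 3 (23.1%) rose and 4 (30.8%) fell with shRNA 1, near the 28.6% higher and 28.7% lower among all genes tested. With shRNA 2, 4 rose and 4 fell (30.8% each), near the 24.7% higher and 25.3% lower among all genes. On library totals alone the shRNA 1 split was 5 higher and 1 lower, beside 39.9% higher and 20.4% lower among all genes tested. ATR and CHEK2, kinases of the checkpoint, fell with both shRNAs, ATR by 0.37 and 0.77 (edgeR adjusted p = 0.000486 and 5.05e-08) and CHEK2 by 0.56 and 0.95 (0.000321 and 7.13e-07), though the shRNA 1 call of ATR was lost on library totals alone. ATM, the kinase for DNA breaks, rose with shRNA 1 to 192 ± 19.9 CPM, against 127 ± 7.58 CPM in control cells (0.59, edgeR adjusted p = 1.93e-07), and averaged 118 ± 1.92 CPM with shRNA 2, not called. CHEK2 and ATM overlap HSCB and NPAT on the other strand, and CHEK2 has pseudogenes.

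Of 33 mitosis genes, listed for comparison with the replication genes, 3 (9.09%) rose and 19 (57.6%) fell with shRNA 1, beside 28.6% higher and 28.7% lower among all genes tested, and 23 (69.7%) rose and 1 (3.03%) fell with shRNA 2, beside 24.7% higher and 25.3% lower. The shRNA 1 split was 10 higher and 14 lower on library totals alone, beside 39.9% higher and 20.4% lower among all genes tested. The number higher was 9 with upper quartile factors, 7 with at least 10 counts in every library and 5 without control replicate 4. Among all genes tested, 34%, 32.2% and 26.6% were higher in those settings. CCNB1, cyclin B1, had 38.2 ± 6.54 CPM with shRNA 1, 93.8 ± 2.02 CPM with shRNA 2 and 81.9 ± 5.99 CPM in control cells (log2 changes -1.10, edgeR adjusted p = 1.24e-09, and 0.20, edgeR adjusted p = 0.0846). The shRNA 2 value of CCNB1 passed in 5 of 21 alternatives, at adjusted p 0.00538 to 0.0497, among them without shRNA 1 replicate 2 (0.0185). ANLN, a scaffold of cell division, rose with both shRNAs, to 176 ± 14.4 and 197 ± 11.7 CPM against 88.0 ± 6.38 CPM in control cells (edgeR adjusted p = 4.65e-11 and 6.67e-12). It overlaps KIAA0895 on the other strand. MAD2L1, of the spindle checkpoint, was the single mitosis gene that fell with shRNA 2, to 20.7 ± 2.72 CPM against 57.2 ± 6.52 CPM in control cells, and it fell with shRNA 1 to 44.0 ± 5.58 CPM (log2 changes -1.47 and -0.38, edgeR adjusted p = 1.73e-10 and 0.00356). The shRNA 1 call of MAD2L1 was lost on library totals alone.

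**Figure D4:**
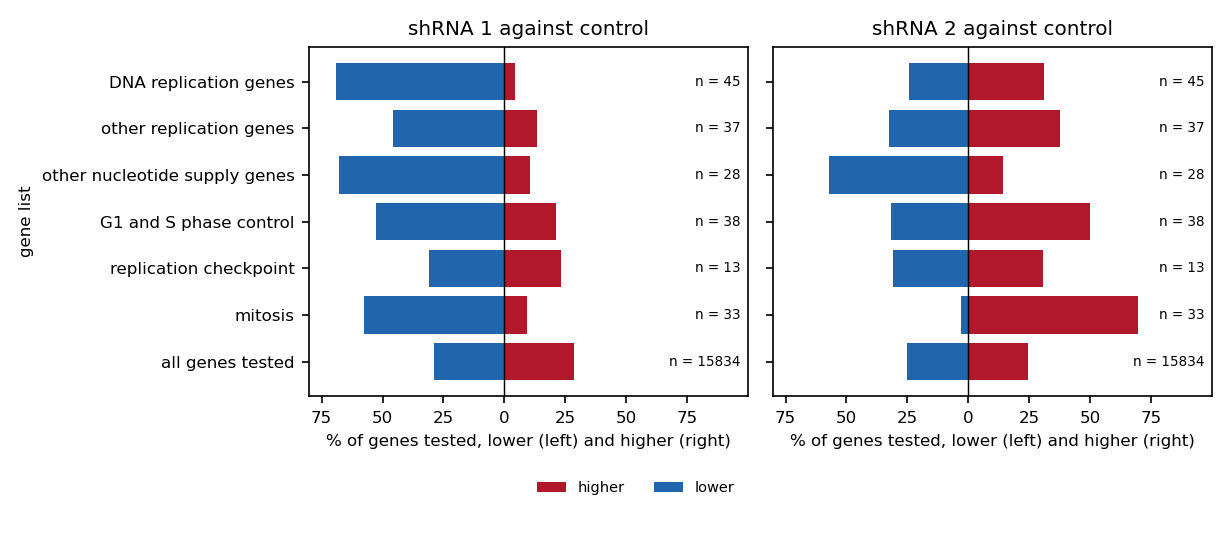
Percent of tested genes called lower (left, blue) and higher (right, red) against control in each gene list, with shRNA 1 in the left panel and shRNA 2 in the right; n is the number of genes tested. With shRNA 1, 68.9% of the DNA replication genes were lower, beside 28.7% of all genes tested, and with shRNA 2, 69.7% of the mitosis genes were higher, beside 24.7% of all genes tested.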

How the data were processed

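RNA was extracted with Trizol and libraries were made with a kit named as NEBNext Ultra, which does not mark strand, per the labels' protocols. As deposited, the values are raw counts, 1 whole number for each Ensembl gene and library. The submitters' processing notes name STAR 2.7.3a, cutadapt 2.6 and DESeq2, with hg19 as build and no roles; the sources used here do not give the counting tool, annotation or strand setting. Without a strand setting, reads of overlapping genes cannot be told apart, which concerns 16 members with a gene on the other strand and 6 on the same strand, and 7 members have a pseudogene in the table. The same limit holds for FIP1L1, which overlaps LNX1, and for SSRP1, DONSON, POLE3, TK2, NME1, ATR, CHEK2, ATM, MAD2L1 and ANLN of the other lists.

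All 12 libraries were fitted together in edgeR 4.0.16 (R 4.3.3) by quasi-likelihood, with F tests, TMM scaling, filterByExpr, robust dispersion, 9 residual degrees of freedom and two-sided tests. Standard errors are the log2 change divided by the square root of F, and 95% intervals use the t distribution. CPM are given per library or as mean ± SD. Positions and exon lengths came from GENCODE 29 on GRCh38. Symbols came from a separate list of gene names, or from GENCODE 29 where that list had none, and 45342 of 48162 IDs had a symbol. UHRF1 matched no ID. The fit was tested on simulated data. To look for a library deposited more than once, counts of each pair of libraries of a group were compared. Chi-square over degrees of freedom was 11.2 to 29.4 for shRNA 1 pairs other than replicates 3 and 4 (3.91), and 3.59 to 7.34 for shRNA 2 and control pairs, so no pair was treated as 1 library.

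The members and lists were chosen with earlier results of these data known. Members named with each library are those with a call in 1 shared direction for both shRNAs (up to 8 by the smaller change), in opposite directions (up to 6 by their difference), and the 2 largest changes of each comparison; other members given by library were picked after their values were seen. Other lists are named by their 2 largest called changes per comparison. Alternatives were RLE and upper quartile factors, no scaling factor (added after the data were seen), no filter, at least 10 counts in every library, DESeq2 1.42.0, limma 3.58.1 voom, only the groups compared, a replicate block and leaving out each library. The 3'READS poly(A) site counts were not used here, since their sites carry no gene names.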

Additional observations from a re-analysis of the deposited data

Results flagged for a closer look

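In 138 groups of 4 libraries, 1 for each gene of the 45 members and FIP1L1 in each of the 3 conditions, 5 had 1 library far from the other 3 by Dixon's test at the 95% level, where chance alone gives about 1 in 20, or 6.9. CDC6 had 57.36 CPM in shRNA 1 replicate 1, above 44.22 to 45.74 CPM in the other shRNA 1 libraries, and that library was still below every control library. ORC3 had 17.91 CPM in shRNA 2 replicate 2, above 15.31 to 15.64 CPM in the others of its group. POLA1 had 81.51 CPM in shRNA 2 replicate 4, above 75.56 to 76.55 CPM. RFC1 had 159.4 CPM in control replicate 3, above 155.6 to 156.0 CPM, a small gap in a very even group. PRIM1 had 40.28 CPM in control replicate 1, below 42.69 to 43.18 CPM in the other controls. The calls of CDC6 and POLA1 with shRNA 1 and of ORC3 and PRIM1 with shRNA 2 held without each of these libraries.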

How the results depend on the processing

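No call of the 45 members reversed under any of the 21 alternatives, of which 12 left out 1 library each. Of 2835 repeats of a member's comparison, 2736 kept their side of the threshold, 59 lost the call and 40 gained it. Calls that held in every alternative were 26 of 33 for shRNA 1, 21 of 25 for shRNA 2 and 30 of 35 for shRNA 2 against shRNA 1. Of 1005 repeats for the named genes of the other lists, 964 kept their side, 28 lost the call and 13 gained it. The median with shRNA 1 (-0.448) was -0.350 with upper quartile factors and -0.254 on library totals alone, the median with shRNA 2 (0.029) was 0.052 and 0.112, and that of shRNA 2 against shRNA 1 (0.524) was 0.450 and 0.414. The median of all genes moved with it, to 0.117 and 0.213 with shRNA 1 (their distance from the members' median is fixed by construction when scaling alone changes). The median of shRNA 2 against shRNA 1 was 0.549 without the filter on low counts and 0.503 with at least 10 counts in every library; the cause was not tested. Members higher with shRNA 1 numbered 5 with upper quartile factors, 1 with limma-voom and 8 on library totals alone, where the main count was 2. Among all genes tested, 34%, 28.2% and 39.9% were higher in those settings, and 28.6% in the main fit. Leaving out 1 library gave 1 to 3 members higher with shRNA 1, a median of 0.001 to 0.049 with shRNA 2 and of 0.428 to 0.546 for shRNA 2 against shRNA 1. The number higher with shRNA 1 was 1 without control replicate 1 or 2 or shRNA 1 replicate 3 or 4, and the shRNA 2 median was 0.001 without shRNA 2 replicate 3 and 0.049 without shRNA 2 replicate 4.

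The labels do not say what a replicate number shares, and the counts showed no clear pairing by number. Deviations of same-numbered libraries from their group means correlated at -0.037 to 0.089, and those of other pairs at -0.121 to 0.095. With a replicate block, all 33 shRNA 1 calls and all 25 shRNA 2 calls of the members held, RPA3 and RFC3 were gained, and POLA2 was lost between the shRNAs. Among named genes of the other lists, the shRNA 2 call of CDKN1C was lost (adjusted p = 0.0796) and that of NME1 gained (0.00566). GINS3, POLE2 and CCNE2, with 79 to 391 counts per library, had standard errors of 0.114 to 0.207, against 0.055 to 0.062 for MCM2 and POLE. Counts alone do not order the errors: POLA1, with 553 to 1445 counts, had 0.106 to 0.108, and GMNN, with 306 to 535, had 0.089 to 0.090.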
